A study of Mus musculus with 6 samples.

Results

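Sirtuins are a family of 7 mammalian enzymes that remove acetyl and other acyl groups from proteins and consume NAD+ with each reaction. The genes are Sirt1 to Sirt7, and they were the 7 rows with these symbols among 56941 genes in the count table. Because they need NAD+, sirtuins are regarded as sensors of the metabolic state of a cell. Sirt1, Sirt6 and Sirt7 act in the nucleus, Sirt2 mainly in the cytosol, and Sirt3, Sirt4 and Sirt5 in mitochondria. In skin they have been studied in keratinocyte differentiation, DNA repair and ageing, and the study of these samples links them to NFATc1 and to the Wnt pathway protein Dvl.

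Total RNA was sequenced from hair follicle stem cells (HFSCs) of female mouse dorsal skin at PD68, sorted by FACS as CD34+/α6-integrin+ cells. The 3 libraries labelled WT came from K14CreER-/- Dab2fl/fl mice, and the 3 labelled Dab2-cKO from K14CreER+/- Dab2fl/fl mice, all of the B6;129S4-Dab2tm1Cpr/J strain. Both groups carried the floxed Dab2 allele and received tamoxifen at 75 mg/kg by intraperitoneal injection on 5 days. The keratin 14 promoter drives the inducible Cre in basal keratinocytes and the outer root sheath, not in HFSCs alone, and the effects of Cre and of the deletion cannot be told apart since no group carried Cre without floxed alleles. The count columns of the second group are headed FL-FL, and they were taken as Dab2-cKO because the series title uses that name for the knockout mice.

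Dab2, the gene targeted by the deletion, went against these labels. Its normalized count was 338, 332 and 309 in the libraries labelled WT and 1434, 1300 and 1390 in those labelled Dab2-cKO, a log2 difference of 2.08 (SE 0.08, edgeR's adjusted p = 3.04e-34). The counts are summed over the whole gene, so the deleted exons were not examined apart. For this reason every direction below is that of the libraries labelled Dab2-cKO relative to those labelled WT, and "rose" and "fell" mean only that.

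The libraries held 7040032 to 11696457 counts, of which 863 to 1260 fell on the 7 sirtuins. Markers of other cell types differed between the groups more than the sirtuins did. All 13 hair shaft and inner root sheath markers in the table were lower in the libraries labelled Dab2-cKO (summed normalized counts 229694 to 276171 against 3191 to 3262), as were all 12 proliferation markers (11037 to 12078 against 3386 to 3475) and all 6 melanocyte markers (2908 to 3149 against 891 to 938). Fibroblast markers were higher there in 7 of 7 (101715 to 122982 against 354644 to 374295), skeletal muscle markers in 6 of 6 (23573 to 27374 against 132178 to 135151), endothelial in 6 of 6 (1441 to 1603 against 4969 to 5104), immune in 6 of 7 (1052 to 1095 against 4288 to 4410), adipocyte in 4 of 5 (2976 to 3283 against 6492 to 6543) and differentiated epidermis in 6 of 7 (18767 to 21958 against 74628 to 74783). No gene of these lists was at 0 in all libraries. Of 12 HFSC bulge markers, 7 rose, among them Cd34, and Lgr5, Sox9, Lhx2 and Foxc1 fell. The members that went otherwise in these lists were Cd3e (immune), which was not called, and Lep (adipocyte) and Ivl (differentiated epidermis), which fell. The part of these cell types in the sirtuin results was not tested, and in bulk RNA fewer cells of a type and less RNA per cell cannot be told apart.

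All members share a glycine-rich motif at the start of the catalytic core, which binds NAD+. The coding bases of the canonical transcripts are shown from this motif onward (GRCm39, GENCODE M39), because they are what makes these genes one family. Each stretch has 45 bases, and the capitals mark the 15 bases of the motif.
Sirt1: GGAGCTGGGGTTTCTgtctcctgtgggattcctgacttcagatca
Sirt2: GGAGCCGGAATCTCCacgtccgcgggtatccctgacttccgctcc
Sirt3: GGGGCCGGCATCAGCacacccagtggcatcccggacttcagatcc
Sirt4: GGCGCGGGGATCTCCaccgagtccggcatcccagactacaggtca
Sirt5: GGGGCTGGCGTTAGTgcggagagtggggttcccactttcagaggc
Sirt6: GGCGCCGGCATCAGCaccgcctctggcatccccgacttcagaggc
Sirt7: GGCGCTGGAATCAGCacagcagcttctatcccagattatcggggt
In Sirt1 the motif runs over the junction of exons 3 and 4 of 9. In the other members it lies within 1 exon, for example exon 4 of 15 in Sirt2 (chr7:28476306-28476320, plus strand), exon 3 of 9 in Sirt5 (chr13:43525364-43525378, plus strand) and exon 3 of 10 in Sirt7 (chr11:120515319-120515333, minus strand). Of the 15 motif bases, 7 were the same in all members. The motif was located by its amino acids Gly-Ala-Gly-any-Ser, which fix most of these shared bases in advance. The motif of Sirt5 shared 11 bases with that of Sirt1, and those of Sirt3 and Sirt6 shared 7.

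Among the 7 genes, Sirt2 rose and Sirt1 and Sirt5 fell in the libraries labelled Dab2-cKO, while Sirt3, Sirt4, Sirt6 and Sirt7 were not called by edgeR's quasi-likelihood test at an adjusted p under 0.05. All 7 passed the filter on low counts. Across all 32149 genes tested, 28.2% were called, 16.8% higher and 11.5% lower, so 3 of 7 stood about 1 gene above the share of all genes. These shares, also set beside the gene lists below, include genes of low count, which are called less often. In the fit limited to a mean count of at least 50, which kept all 7 sirtuins, 4 of 7 were called. Of the 14801 genes tested in that fit, 8523 were called, 4461 of them higher, so there the sirtuins stood near the share of all genes. In the main fit the groups did not overlap for Sirt1, Sirt2 and Sirt5, against 38.3% of the 32149 genes tested. The median of the 7 log2 fold changes was -0.07 and their median absolute size 0.22, against -0.02 and 0.35 over all genes tested. None of the 3 called members passed a test against a 1.5-fold change (edgeR's glmTreat), where 0 of 7 also had an unadjusted p under 0.05.

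**Figure D1:**
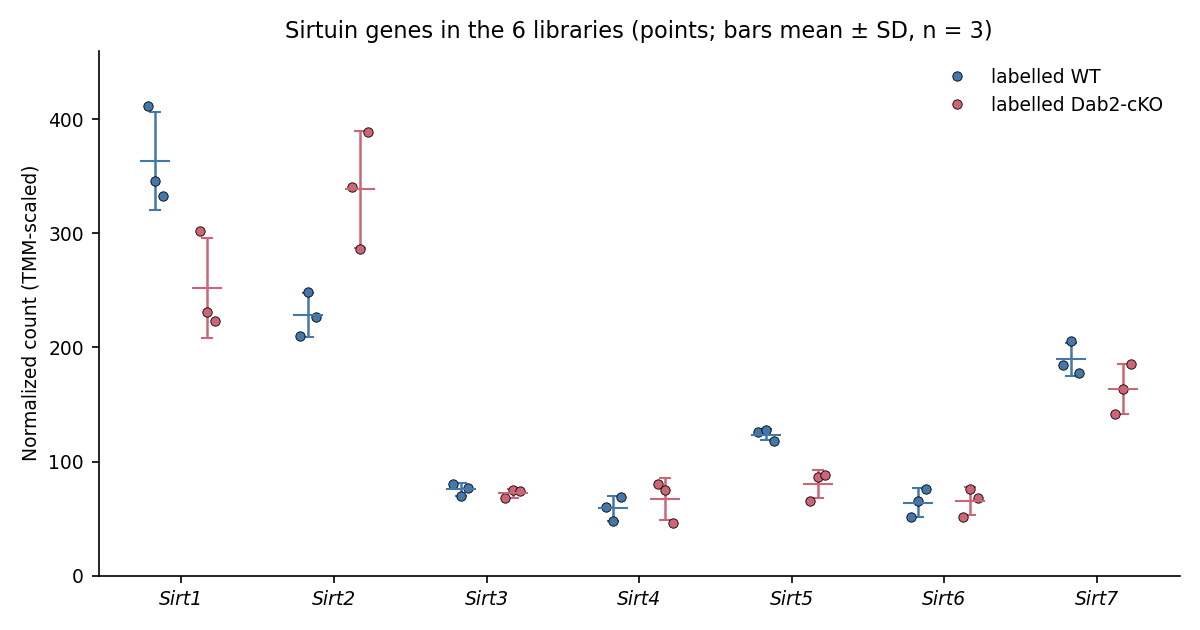
Normalized counts (TMM-scaled, y axis) of the 7 sirtuin genes in each library, with blue points for the libraries labelled WT, red points for those labelled Dab2-cKO, and bars for the mean and SD of 3 libraries. The points of the groups are separate for Sirt1, Sirt2 and Sirt5 and overlap for the other genes.

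Of the nuclear members, Sirt1 is the founding mammalian sirtuin and deacetylates histones and transcription factors such as p53 and the FoxO proteins. The gene lies at chr10:63154581-63217483 on the minus strand (GRCm39). Its normalized counts were 412, 346 and 332 in the libraries labelled WT and 302, 231 and 223 in those labelled Dab2-cKO. The groups did not overlap, and in each the first library stood above the other two. The mean went from 363 ± 42.6 to 252 ± 43.6 (SD, n = 3), 1.43-fold lower, with a log2 fold change of -0.52 (SE 0.11, 95% CI -0.74 to -0.29, edgeR's adjusted p = 0.00012). Library size alone gave -0.95. Herc4, a ubiquitin ligase gene on the opposite strand, shares 12.46% of the annotated Sirt1 exon bases and also fell, with a log2 fold change of -0.28 (adjusted p = 0.00253), and whether the counting used strand is not given in the sources used here.

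Sirt6 is a chromatin-bound enzyme known for its roles in DNA repair and telomere maintenance. It lies at chr10:81455262-81463631 on the minus strand. Its normalized counts were 51.2, 65.0 and 76.0 in the libraries labelled WT and 51.5, 75.9 and 68.4 in those labelled Dab2-cKO. The groups covered almost the same range, with a log2 fold change of 0.01 (95% CI -0.43 to 0.44, edgeR's adjusted p = 0.988). That interval leaves room for a log2 difference of up to 0.43 in either direction, and the value was negative with upper-quartile scaling and with library size alone.

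Sirt7 resides in the nucleolus and acts on histones and on ribosomal RNA transcription by RNA polymerase I. The study displayed several sirtuins, Sirt7 among them, from these libraries, so the values of those displayed are not independent evidence of a direction. Its stated results for Sirt2 and Sirt7 came from qPCR of other samples, taken at other ages. Sirt7 lies at chr11:120509197-120516066 on the minus strand. Normalized counts were 185, 206 and 178 in the libraries labelled WT and 142, 163 and 185 in those labelled Dab2-cKO. The lowest value of the first group lay below the highest of the second, so the groups overlapped. The log2 fold change was -0.22 (SE 0.13, 95% CI -0.48 to 0.05), and edgeR's adjusted p was 0.26. The call depended on the processing: with upper-quartile scaling the adjusted p was 0.0278, with library size alone 3.18e-05 and with a filter at a mean count of 50 it was 0.0441, in a range over all alternatives from 3.18e-05 to 0.597. On the same strand, 2.428% of its annotated exon bases are shared with Mafg, which was not called (adjusted p = 0.56).

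Sirt2, the cytosolic member, deacetylates tubulin and was the one sirtuin that rose. It lies at chr7:28466160-28488090 on the plus strand. Normalized counts were 210, 248 and 226 in the libraries labelled WT and 340, 287 and 388 in those labelled Dab2-cKO. The lowest of the second group was above the highest of the first. The mean went from 228 ± 19.0 to 338 ± 51.0 (SD, n = 3), 1.48-fold higher, with a log2 fold change of 0.57 (SE 0.11, 95% CI 0.34 to 0.79, edgeR's adjusted p = 2.87e-05). With scaling by library size alone the difference was 0.14 (adjusted p = 0.301, against 2.03e-06 to 0.301 over all alternatives), and that scaling moved the median of all genes to -0.45. Relative to that median the difference was 0.59.

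Of the mitochondrial members, Sirt5 removes succinyl, malonyl and glutaryl groups rather than acetyl groups, and it had the largest difference of the 7 in absolute size when all libraries were used. Without Dab2-cKO replicate 1 that of Sirt1 was larger (-0.69 against -0.52), and without WT replicate 2 that of Sirt2 (0.64 against -0.60). It lies at chr13:43518856-43550487 on the plus strand. Normalized counts were 126, 127 and 118 in the libraries labelled WT and 65.8, 86.3 and 88.3 in those labelled Dab2-cKO. The first group was tight and lay wholly above the second. The mean went from 124 ± 5.05 to 80.1 ± 12.5 (SD, n = 3), 1.55-fold lower, with a log2 fold change of -0.63 (SE 0.17, 95% CI -0.97 to -0.29, edgeR's adjusted p = 0.00239). With library size alone the log2 fold change was -1.06.

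Sirt3 is the main mitochondrial deacetylase and lies at chr7:140443577-140462311 on the minus strand. Its normalized counts were 80.2, 69.5 and 76.9 in the libraries labelled WT and 67.7, 74.8 and 73.9 in those labelled Dab2-cKO. The groups overlapped closely, with a log2 fold change of -0.07 (95% CI -0.46 to 0.33, edgeR's adjusted p = 0.868). Scaling by library size alone gave -0.49 with an adjusted p of 0.0441, in a range over all alternatives from 0.0441 to 0.972, and relative to the shifted median of all genes this was -0.04.

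Sirt4, which inhibits glutamate dehydrogenase, lies at chr5:115616065-115622784 on the minus strand. Its normalized counts were 60.1, 47.8 and 69.2 in the libraries labelled WT and 80.1, 74.8 and 46.4 in those labelled Dab2-cKO. Here 2 libraries of the second group were above all of the first, and the remaining library was the lowest of the 6. The log2 fold change was 0.19 (95% CI -0.26 to 0.64, edgeR's adjusted p = 0.626), and with library size alone it was -0.24.

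Exact permutation tests of the single genes gave p = 0.1 for Sirt1, Sirt2 and Sirt5, which is the smallest that 3 against 3 libraries allow, 0.3 for Sirt7, 0.4 for Sirt3, 0.6 for Sirt4 and 0.8 for Sirt6 (two-sided). The calls therefore rest on the spread that edgeR estimates over all genes. Leaving out each of the 6 libraries in turn left Sirt1, Sirt2 and Sirt5 called every time and no other sirtuin.

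**Figure D2:**
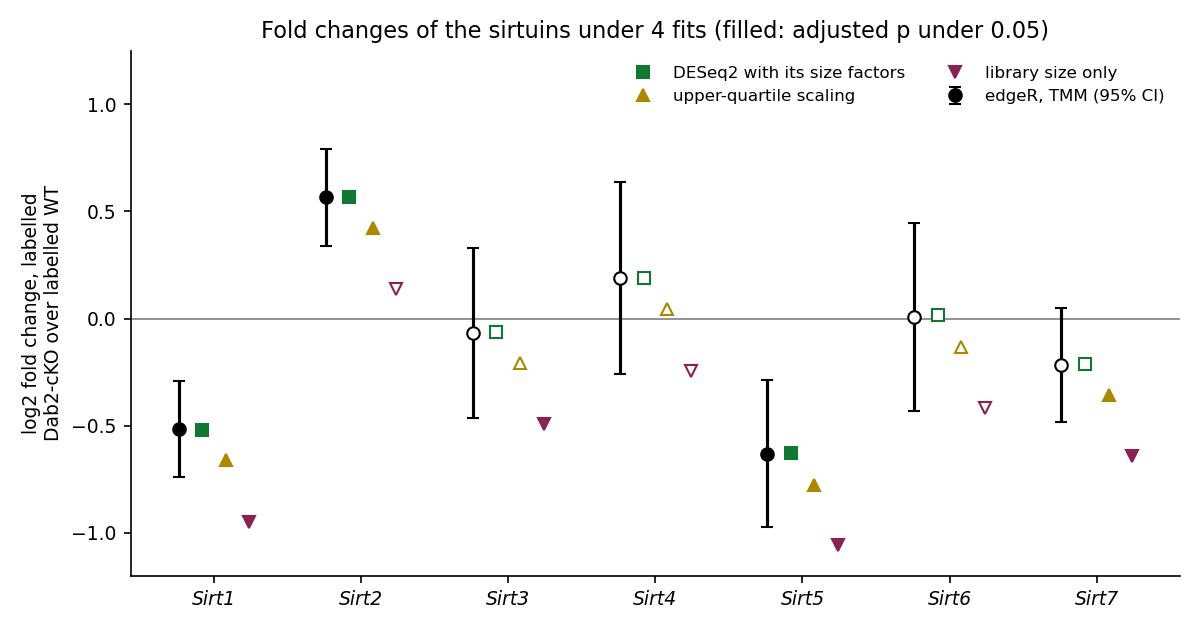
log2 fold change of each sirtuin, libraries labelled Dab2-cKO over those labelled WT, under edgeR with TMM scaling (circles, 95% CI), DESeq2 (squares), upper-quartile scaling (upward triangles) and library size alone (downward triangles). Filled symbols had an adjusted p under 0.05, and the points of every gene move down together from the first fit to the last, for Sirt2 from 0.57 to 0.14.

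The groups also differed in how far a few genes took the counts. The 100 most abundant genes held 32.4% to 33.2% of counts in the libraries labelled WT and 44.0% to 46.2% in those labelled Dab2-cKO. The 7 sirtuins together made up 130 to 143 CPM (counts scaled to the library total) in the first group and 92.1 to 98.1 in the second. After TMM scaling the sums were 1077 to 1125 and 993 to 1074, so every sum of the second group was below every sum of the first. The nearest sums, 1076.6 in WT replicate 3 and 1073.9 in Dab2-cKO replicate 3, were almost equal. Of all genes tested, 38.3% did not overlap between the groups. Upper-quartile scaling called 1 sirtuin higher and 3 lower, and library size alone called 4 lower, where the TMM fit called 1 higher and 2 lower.

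A share within the family does not depend on the scaling of libraries. Sirt1 supplied 36.6% of the summed sirtuin counts (95% Wilson interval 33.7% to 39.7%), 31.2% (28.6% to 33.8%) and 30.9% (28.4% to 33.5%) in the libraries labelled WT. It supplied 28.8% (26.2% to 31.5%), 23.3% (20.6% to 26.2%) and 20.8% (18.3% to 23.4%) in those labelled Dab2-cKO. Sirt2 supplied 18.7% (16.4% to 21.2%), 22.4% (20.1% to 24.8%) and 21.0% (18.9% to 23.4%) in the first group and 32.4% (29.7% to 35.2%), 28.9% (25.9% to 32.0%) and 36.2% (33.2% to 39.2%) in the second. Thus Sirt1 was the most counted sirtuin in all 3 libraries labelled WT and Sirt2 in all 3 labelled Dab2-cKO. These intervals cover counting error only.

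The mean share of Sirt2 was 11.8 percentage points higher in the libraries labelled Dab2-cKO, that of Sirt1 8.61 points lower and that of Sirt5 3.48 points lower (11.2% ± 0.26 against 7.73% ± 1.29, SD, n = 3). For these 3 genes the groups did not overlap, and an exact permutation test gave p = 0.1 each, the smallest possible, or 0.233 after adjustment over the 7 shares. The shares of a library add up to the whole, so a higher share of Sirt2 lowers the summed share of the others. The 3 differences are therefore not separate results. The shares of Sirt3, Sirt4, Sirt6 and Sirt7 overlapped between the groups. For Sirt7 they were 17.2% ± 1.2 and 15.8% ± 1.96 (p = 0.5, exact permutation test).

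**Figure D3:**
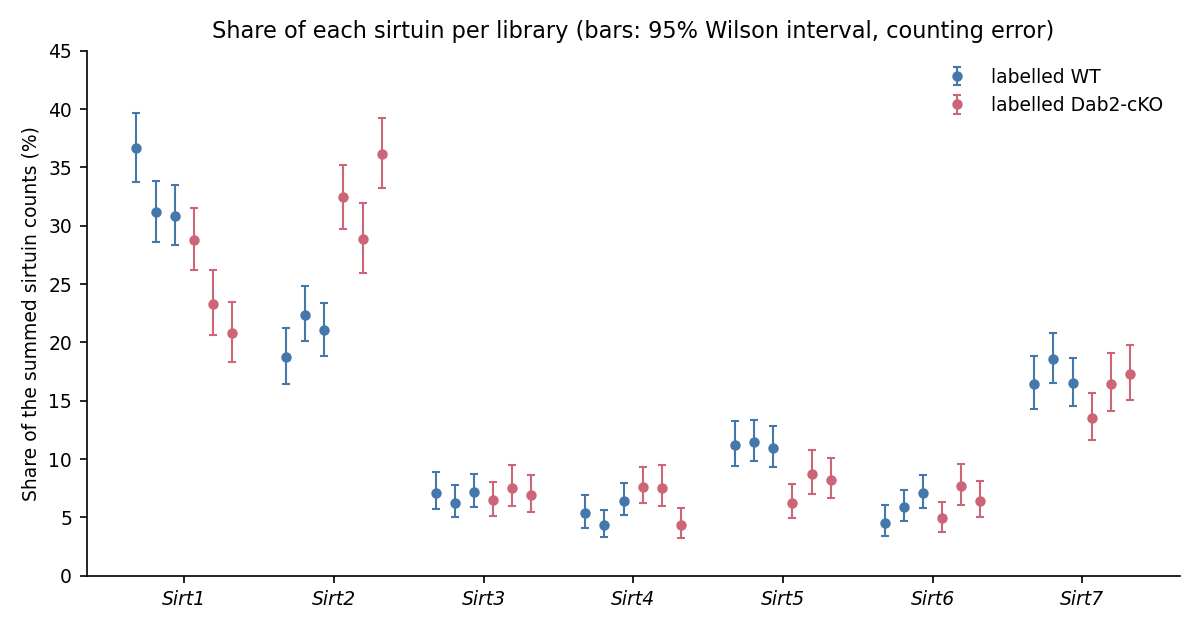
Share of each sirtuin in the summed counts of the 7 genes (y axis, percent) in each library, blue for the libraries labelled WT and red for those labelled Dab2-cKO, with 95% Wilson intervals for counting error. Sirt1 falls from 30.9% to 36.6% in the first group to 20.8% to 28.8% in the second, while Sirt2 goes from 18.7% to 22.4% up to 28.9% to 36.2%.

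The ratio of Sirt2 to Sirt1 counts shows the change of order within each library. It was 0.51, 0.72 and 0.68 in the libraries labelled WT and 1.13, 1.24 and 1.74 in those labelled Dab2-cKO. The ratio of Sirt2 to Sirt7 was likewise separate, at 1.14, 1.21 and 1.27 against 2.40, 1.75 and 2.10. The ratio of Sirt7 to Sirt1 overlapped, at 0.45, 0.60 and 0.53 against 0.47, 0.71 and 0.83. That of Sirt5 to Sirt1 overlapped too, at 0.31, 0.37 and 0.35 against 0.22, 0.37 and 0.40.

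By compartment, the summed normalized counts of the nuclear members Sirt1, Sirt6 and Sirt7 were 648, 617 and 586 in the libraries labelled WT and 496, 471 and 477 in those labelled Dab2-cKO. The mitochondrial members Sirt3, Sirt4 and Sirt5 summed to 266, 245 and 264 against 214, 236 and 209. Both sums were lower in every library of the second group, beside 38.3% of all genes tested that did not overlap between the groups. Sirt1 was the most counted gene of the nuclear sum. Of the mitochondrial members Sirt5 alone was called. Sirt2 alone made up the cytosolic class, whose share of the family was 18.7% to 22.4% in the first group and 28.9% to 36.2% in the second. The share of the nuclear members was 54.4% to 57.6% against 44.4% to 47.4%. That of the mitochondrial members overlapped, at 22.1% to 24.5% against 19.4% to 23.8%.

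Levels of different genes can be set side by side only per length. Per kb of the union of annotated exons, the mean normalized count over the 6 libraries was 54.3 for Sirt1, 52.1 for Sirt2, 34.3 for Sirt7, 22.7 for Sirt4, 10.9 for Sirt5, 9.71 for Sirt6 and 8.40 for Sirt3. In the libraries labelled WT, Sirt1 (58.6 to 72.6) was above Sirt2 (38.7 to 45.6) without overlap. In those labelled Dab2-cKO their ranges overlapped slightly, with 39.3 to 53.3 for Sirt1 and 52.7 to 71.4 for Sirt2. Sirt2 and Sirt7 overlapped in the first group (38.7 to 45.6 against 34.5 to 40.0) and not in the second. Sirt7 was above Sirt4 without overlap in the first group (34.5 to 40.0 against 17.2 to 24.9) and overlapped it in the second (27.6 to 36.0 against 16.7 to 28.8). Sirt4 was above Sirt5 without overlap in both groups. Sirt5 and Sirt6 did not overlap in the first group (12.6 to 13.6 against 7.68 to 11.4) and did in the second, and the ranges of Sirt6 and Sirt3 overlapped in both.

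The order depends on which transcript is taken as the length, since the annotation lists 10 transcripts for Sirt1, 54 for Sirt2 and 34 for Sirt3. Per kb of the canonical transcript, a scale added after the data were seen, the means were 155 for Sirt2, 102 for Sirt7, 73.8 for Sirt1, 53.1 for Sirt5, 51.5 for Sirt3, 35.1 for Sirt4 and 34.2 for Sirt6. Sirt2, Sirt7 and Sirt1 filled the top 3 places on either scale.

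As a background, 1970 olfactory, vomeronasal and trace amine receptor genes, which skin is not known to use broadly, gave 4.85 per kb of exon union as their median normalized count and 13.4 as the 95th percentile. Sirt1, Sirt2, Sirt7 and Sirt4 were above that percentile in every library. On this scale the means of Sirt5, Sirt6 and Sirt3 lay between the median and the percentile. Sirt5 had 12.6 to 13.6 in the libraries labelled WT, a range across the percentile. It had 7.04 to 9.45 in those labelled Dab2-cKO, below the percentile. Per kb of the canonical transcript the means of Sirt5, Sirt6 and Sirt3 were 53.1, 34.2 and 51.5, beside 35.1 for Sirt4. The receptor genes were not measured on that scale, so the place of these genes relative to background depends on the length used. The part that such background counts have in the values of these 3 genes was not tested, and the difference of Sirt5 is to be read with this level in view.

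**Figure D4:**
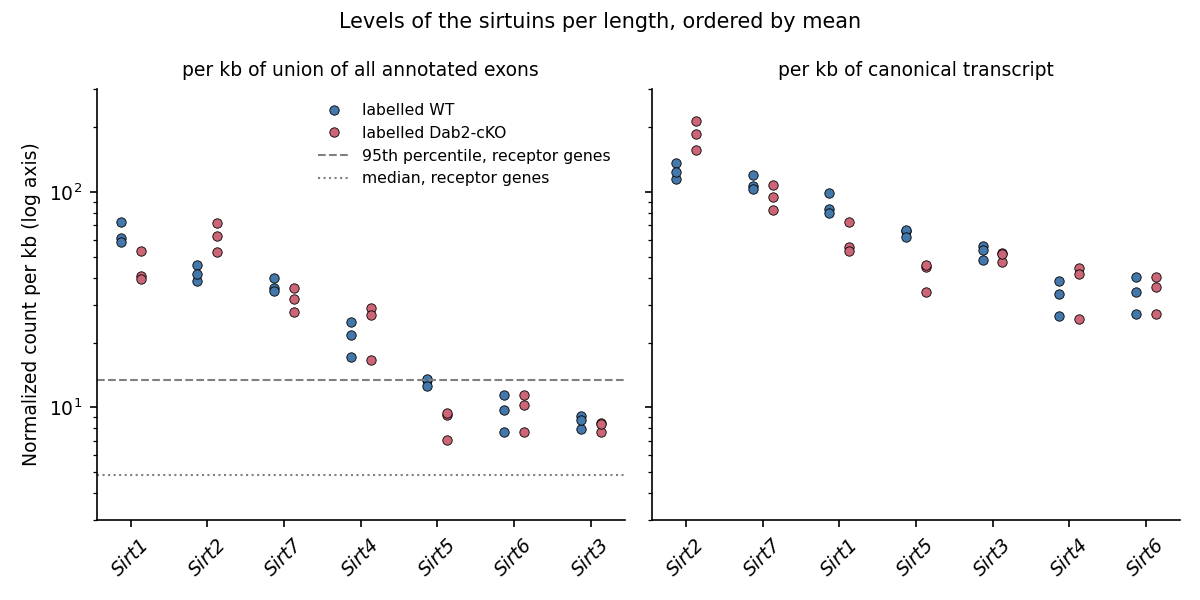
Normalized count per kb (log axis) of each sirtuin in each library, blue for the libraries labelled WT and red for those labelled Dab2-cKO, on the length of the exon union (left, with the median of 4.85 and 95th percentile of 13.4 of 1970 receptor genes) and of the canonical transcript (right). Genes are ordered by their mean, from Sirt1 to Sirt3 on the left and from Sirt2 to Sirt6 on the right.

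The promoters of the 3 called members are shown to set Sirt1 and Sirt5, which fell, beside Sirt2, which rose. The windows run from 250 bases before to 50 after the RefSeq start (RefSeq on GRCm38.p6, matched base for base to GRCm39), at chr10:63174765-63175064 on the minus strand for Sirt1, chr7:28465927-28466226 on the plus strand for Sirt2 and chr13:43518761-43519060 on the plus strand for Sirt5. The Sirt1 window lies inside the GENCODE span of that gene, which reaches further upstream to 63217483. Capitals mark matches on either strand to the E-box CACGTG, the CCAAT box CCAAT, the GC box GGGCGG and the TATA box TATAAA.
Sirt1: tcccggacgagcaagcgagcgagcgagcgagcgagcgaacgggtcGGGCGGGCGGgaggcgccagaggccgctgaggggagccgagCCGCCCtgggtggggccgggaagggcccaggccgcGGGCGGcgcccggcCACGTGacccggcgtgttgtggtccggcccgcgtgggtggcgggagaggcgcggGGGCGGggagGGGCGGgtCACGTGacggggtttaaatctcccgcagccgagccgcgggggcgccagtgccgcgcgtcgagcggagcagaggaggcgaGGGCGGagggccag
Sirt2: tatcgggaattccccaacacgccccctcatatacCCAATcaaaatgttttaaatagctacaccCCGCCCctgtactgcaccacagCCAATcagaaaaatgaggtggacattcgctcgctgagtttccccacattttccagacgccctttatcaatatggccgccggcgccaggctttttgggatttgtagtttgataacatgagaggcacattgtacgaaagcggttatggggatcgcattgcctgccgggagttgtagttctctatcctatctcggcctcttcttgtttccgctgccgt
Sirt5: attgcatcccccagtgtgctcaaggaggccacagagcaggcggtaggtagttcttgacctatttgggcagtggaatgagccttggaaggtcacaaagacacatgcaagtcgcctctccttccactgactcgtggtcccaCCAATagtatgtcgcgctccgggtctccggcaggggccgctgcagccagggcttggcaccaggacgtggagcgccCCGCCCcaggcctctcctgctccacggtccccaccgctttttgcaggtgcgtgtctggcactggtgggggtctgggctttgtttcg
The Sirt1 window held 2 E-boxes and 7 GC boxes at a GC content of 79%. The Sirt2 window held 2 CCAAT boxes and 1 GC box at 50%, and the Sirt5 window 1 of each at 62%. Overlapping GC boxes were each counted. In the windows of the members not called, GC content ran from 51.33% for Sirt7 to 64.67% for Sirt3. That Sirt3 window held 4 GC boxes and 1 CCAAT box. The TATA letters occurred in no window of the 7 genes, and the E-box only in that of Sirt1. Over all 32851 promoter windows the median GC content was 52.67%, 7.15% held the E-box, 37.4% the CCAAT box, 35.7% the GC box and 13.6% the TATA box. These matches describe the letters in the windows and say nothing of binding.

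Sirtuins depend on NAD+, and of 16 genes for NAD+ synthesis 3 rose, 2 fell and 11 were not called, with a median log2 fold change of -0.03, and the share called was near the 28.2% of all genes. Nampt, the rate-limiting enzyme of the salvage route, rose from 385 ± 19.9 to 814 ± 52.6 normalized counts (log2 fold change 1.08, SE 0.08, adjusted p = 2.56e-18). Nmnat2, a cytosolic enzyme of the last step, fell from 203 ± 13.8 to 95.1 ± 13.4 (log2 fold change -1.09, SE 0.15, adjusted p = 2.85e-09). Its nuclear and mitochondrial counterparts were not called, with 60.0 ± 8.86 and 83.3 ± 13.8 for Nmnat1 and 101 ± 11.6 and 92.6 ± 17.2 for Nmnat3. The other called genes were Naprt and Nmrk2, which rose, and Ido2, which fell, named after their values were seen. With library size alone 1 of the 16 rose and 7 fell, and 2 were called without Dab2-cKO replicate 2 and 3 without WT replicate 2. In the fit at a mean count of at least 50, 5 of 11 were called, beside 8523 of 14801 genes.

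Of 19 other enzymes that use NAD+ or its product nicotinamide, 12 rose and 7 were not called, against 16.8% of all genes called higher. Their median log2 fold change was 0.55. Parp14 went from 261 ± 19.3 to 1760 ± 72.2 normalized counts (log2 fold change 2.75, adjusted p = 5.84e-41), Parp3 from 93.2 ± 18.1 to 416 ± 31.6 (2.14, adjusted p = 3.47e-24) and Parp9 from 145 ± 7.03 to 637 ± 40.6 (2.14, adjusted p = 8.05e-29). Parp9 and Parp14 are known as interferon-induced members of the ADP-ribosyltransferase family. Parp1, the abundant DNA damage sensor, had 521 and 477 (adjusted p = 0.32). The immune, endothelial and fibroblast markers moved in the same direction as these genes, and their part was not tested. With library size alone 7 rose and 4 fell. At a mean count of at least 50, 10 of 18 rose and 2 fell, beside 8523 of 14801 genes called, 4461 of them higher.

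The zinc-dependent deacetylases are another family that removes acetyl groups from proteins, by a different reaction that does not use NAD+. Of these 11 genes, 3 rose, 4 fell and 4 were not called, with a median of 0.13, beside 16.8% of all genes called higher and 11.5% lower. Hdac7 rose from 290 ± 27.0 to 592 ± 37.5, Hdac9 from 143 ± 9.0 to 254 ± 25.2 and Hdac8 from 94.2 ± 2.61 to 127 ± 5.95 (log2 fold changes 1.03, 0.83 and 0.43, adjusted p = 4.22e-15, 7.78e-08 and 0.0384). The 4 that fell, named after their values were seen, were Hdac1, Hdac2, Hdac4 and Hdac11, and of these Hdac1 and Hdac2 are the catalytic subunits of the main nuclear corepressor complexes. Scaled by library size alone, 2 rose and 7 fell. Limited to a mean count of at least 50, the fit called 6 of the 11, beside 8523 of 14801 genes.

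Of 8 regulators of sirtuins, 3 rose, 1 fell and 4 were not called, with a median of 0.11, against 28.2% of all genes called in either direction. Stub1, a ubiquitin ligase, rose from 232 ± 34.9 to 356 ± 38.8 (log2 fold change 0.61, adjusted p = 7.67e-06). Ctbp1, a corepressor, rose from 533 ± 17.4 to 637 ± 45.1 (0.26, adjusted p = 0.012), and Hic1, a repressor of Sirt1 transcription that recruits it, went from 61.6 to 115 (0.90, adjusted p = 8.04e-05, named after its value was seen). Usp10, a deubiquitinase, fell from 445 ± 14.5 to 313 ± 14.4 (-0.50, adjusted p = 1.51e-05). Ccar2, the protein inhibitor of Sirt1, had 419 and 410 (adjusted p = 0.849). With library size alone 1 rose and 4 fell. The fit at a mean count of at least 50 called 4 of the 8, beside 8523 of 14801 genes.

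Among 18 genes for nuclear and cytosolic substrates, 5 rose, 5 fell and 8 were not called, with a median of 0.09, where 16.8% of all genes were called higher and 11.5% lower. Nfatc1, a transcription factor of quiescent HFSCs which the study links to sirtuins, was counted at 226, 230 and 233 (normalized) in the libraries labelled WT and at 554, 611 and 561 in those labelled Dab2-cKO, far apart (log2 fold change 1.32, SE 0.10, adjusted p = 1.76e-19). Acss2, a cytosolic acetyl-CoA synthetase, rose from 253 ± 6.99 to 390 ± 60.7 (0.63, adjusted p = 1.51e-06). Ctnnb1, which encodes the Wnt effector β-catenin, fell from 3209 ± 189 to 1890 ± 64.7 (-0.76, adjusted p = 4.42e-15).

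Of the Dvl genes, which relay Wnt signals from the receptor, Dvl2 fell from 205 ± 13.6 to 155 ± 22.4 (log2 fold change -0.40, adjusted p = 0.0147). Dvl1 had 327 ± 37.4 and 370 ± 22.0 (adjusted p = 0.213) and Dvl3 338 ± 37.8 and 343 ± 11.8 (adjusted p = 0.944), and neither was called. The other called substrates, named after their values were seen, were Foxo4, Ppargc1a and Rela, which rose, and Foxo1, Foxo3 and Suv39h1, which fell. Under library size alone, 1 of the 18 rose and 12 fell. In the fit at a mean count of at least 50, 12 of the 18 were called, beside 8523 of 14801 genes.

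Of 15 genes for mitochondrial substrates, 9 rose, 2 fell and 4 were not called, with a median of 0.49, and 16.8% of all genes were called higher. Glud1, the glutamate dehydrogenase inhibited by Sirt4, rose from 741 ± 64.5 to 1620 ± 52.5 (log2 fold change 1.13, adjusted p = 9.86e-22), and Idh2, a target of Sirt3 in redox defence, from 315 ± 44.8 to 671 ± 19.8 (1.08, adjusted p = 1.67e-16). Ppif and Slc25a5 fell and were named after their values were seen. Skeletal muscle markers and the share of counts from the mitochondrial genome (13.0% to 14.4% against 19.1% to 20.3%) moved in the same direction as this list, and their part was not tested. When scaled by library size alone, 5 rose and 4 fell. At a mean count of at least 50, 9 of 14 rose and 4 fell, beside 8523 of 14801 genes called, 4461 of them higher.

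Sirt7 acts with RNA polymerase I, and of 13 genes of this machinery that could be tested 7 fell, 1 rose and 5 were not called, against 11.5% of all genes called lower, with a median of -0.44. Taf1d, a subunit of the selectivity factor, fell from 1609 ± 48.8 to 545 ± 15.2 (log2 fold change -1.56, adjusted p = 4.67e-29). The polymerase subunits Polr1e and Polr1a fell from 153 ± 3.05 to 99.4 ± 8.78 (-0.63, adjusted p = 0.000668) and from 628 ± 31.5 to 409 ± 13.5 (-0.62, adjusted p = 8.44e-09). Polr1d, a subunit shared with RNA polymerase III, was the gene that rose, named after its value was seen, and its call was lost with upper-quartile scaling, with library size alone, without Dab2-cKO replicate 2 and without Dab2-cKO replicate 3. The proliferation markers moved in the same direction as this list, and their part was not tested. Under library size alone, 11 of the 13 fell. The fit at a mean count of at least 50 called 10 lower and 1 higher, beside 8523 of 14801 genes called, 4461 of them higher. Polr1f, Polr1g and Polr1h were not analysed here.

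**Figure D5:**
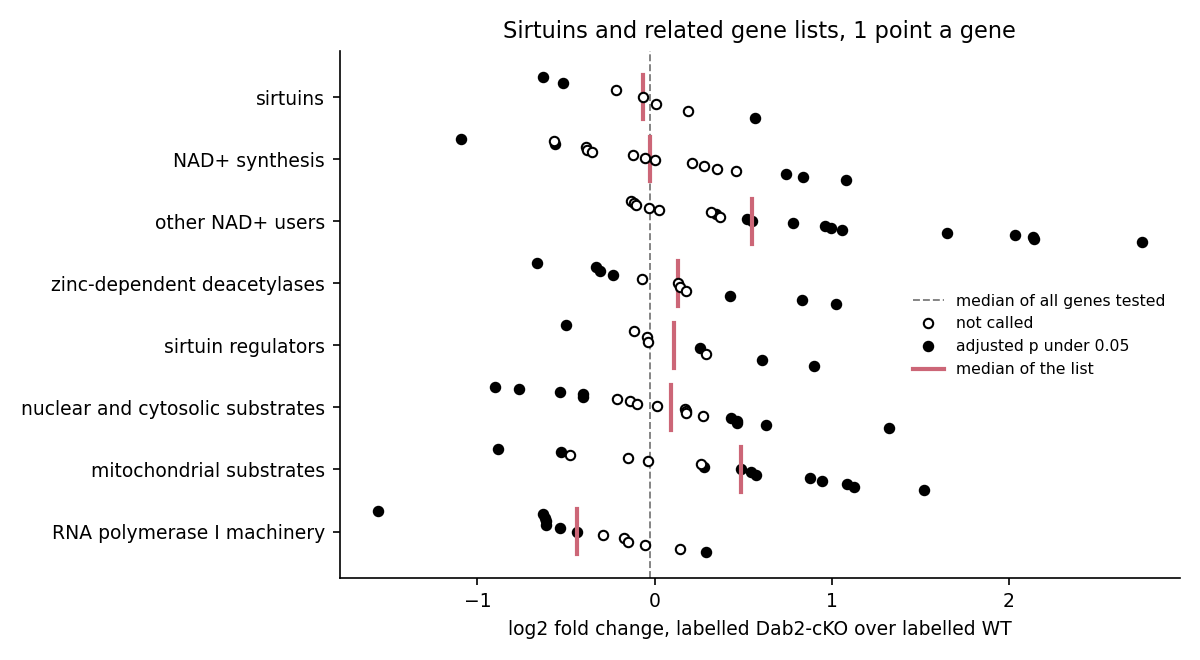
log2 fold changes (x axis, libraries labelled Dab2-cKO over those labelled WT) of the sirtuins and of 7 related gene lists, 1 point a gene, filled where the adjusted p was under 0.05, with a red bar at each list's median and a dashed line at the median of all genes (-0.02). The medians range from -0.44 for the RNA polymerase I machinery to 0.55 for the other NAD+ users.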

How the data were processed

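The authors trimmed the reads with fastp 0.23.4, aligned them to GRCm39 with HISAT2 2.2.1, sorted them with SAMtools 1.6 and deposited raw counts per gene from featureCounts 2.0.6. The strand setting, treatment of multimapping reads, use of molecular identifiers and annotation release are not given in the sources used here. A second deposited table with the authors' DESeq2 1.42.0 fold changes and p-values was not used. Counts of all 56941 genes were tested with edgeR 4.0.16 in R 4.3.3 (TMM scaling, filterByExpr, robust quasi-likelihood test, genotype as the term, Benjamini-Hochberg over 32149 genes, called at an adjusted p under 0.05). Normalized counts are counts divided by the TMM-scaled library size and set to its mean. The test was tried on simulated data. Alternatives were DESeq2, other scalings and filters, the replicate block, each library left out, and a test against a 1.5-fold change. Lengths, positions and overlaps came from GENCODE M39, which may be newer than the authors' annotation. The labels call the libraries biological replicates, and all same-group pairs differed by more than sampling noise.

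The members and gene lists were chosen with earlier results of these data known. The text names the 7 sirtuins, Dab2, the Nampt and Nmnat genes, Nfatc1, the Dvl genes, the sirtuins' neighbours, in each list the 3 called genes that changed most, taken from genes whose groups did not overlap and whose mean normalized count reached 100, and the 3 genes most similar in pattern to Sirt7 and to the sirtuin with the largest change. Genes outside this rule are marked as named after their values were seen. One gene that this rule names is not reported here.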

Additional observations from a re-analysis of the deposited data

How the results depend on the processing

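Sirt1 and Sirt5 kept their direction and their call under all 13 alternatives (log2 fold changes from -0.95 to -0.42 and from -1.06 to -0.52), and Sirt2 under 12 of 13. With library size alone, which moved the median of all genes to -0.45 and called 2686 of 13854 genes higher (TMM 5387 of 9069, upper-quartile scaling 4281 of 9842), Sirt2 was 0.14 and no longer called, Sirt3 -0.49 and Sirt7 -0.64 were called, Sirt4 turned to -0.24 and Sirt6 to -0.42, and 8 NAD+ synthesis genes were called in place of 5. Less that median, Sirt1 to Sirt7 were -0.50, 0.59, -0.04, 0.21, -0.61, 0.04 and -0.19. With upper-quartile scaling Sirt7 was -0.36 and called and Sirt6 was -0.13. A mean count of at least 50 gave -0.30 and a call for Sirt7 and -0.078 for Sirt6, which without a low-count filter was -0.024.

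Leaving out 1 library moved Sirt6 between -0.14 and 0.16, its share of the family between -0.19 and 1.18 percentage points and that of Sirt3 between -0.18 and 0.36 (-0.046 per kb of exon), and the NAD+ synthesis genes called between 2 and 4: 3 without WT replicate 2 and 2 without Dab2-cKO replicate 2. The test against a 1.5-fold change called 0 sirtuins. Of 7 places in the order of levels, 1 was kept by the length of the longest transcript and 0 by that of the canonical transcript.

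Same-numbered libraries hardly deviated together (r = 0.02, 0.01 and 0.01), though each correlated best with its own number. With the replicate number as a block 3 sirtuins were called, Sirt1 at -0.53, Sirt2 at 0.56 and Sirt5 at -0.63, and 8967 genes in all. The members with about 60 to 125 normalized counts had standard errors of 0.17 to 0.22, which limits what this depth can show for them. The cause of the changes named here was not tested.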

Other observations

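The genes next to the sirtuins are given as values. Beside Sirt2, Ccer2 went from 24.5 ± 1.08 to 71.4 ± 7.01 normalized counts (log2 fold change 1.53, adjusted p = 9.56e-07) and Rinl, which starts 276 bases downstream, from 52.2 ± 8.94 to 76.9 ± 7.37 (0.55, adjusted p = 0.0458). Beside Sirt3, Bet1l, a gene of vesicle transport, rose from 53.6 ± 2.21 to 85.6 ± 10.1 (0.67, adjusted p = 0.0092). The neighbours Gm26789 and Dnajc12 of Sirt1, Gm15542 of Sirt3, Pla2g1b of Sirt4, Gfod1 and Nol7 of Sirt5, Tle6 of Sirt6 and Pcyt2 of Sirt7 were not called (adjusted p from 0.0588 to 0.929). Of the genes that share exon bases with a sirtuin, Herc4 fell, while Nfkbib, Ric8a, Psmd13, BC025920, Ankrd24 and Mafg were not called (adjusted p from 0.316 to 0.826), and Mir6936 within Sirt7 was listed at 0 in all libraries. On the opposite strand, Gm19897 shares 9.87% of the Sirt2 exon bases, Gm59983 6.733% of those of Sirt5 and Gm66643 4.407% of those of Sirt1. These had no counts to compare. Gm57298, over 10.22% of the Sirt4 exon bases, did not pass the filter. The part of such overlaps in the sirtuin counts was not tested.

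The genes with the pattern most like that of Sirt7 over the 6 libraries, by Euclidean distance between centred log2 normalized counts among 10848 genes, were Gtf3c4 (distance 0.11), Abat (0.12) and Afg3l1 (0.12), with log2 fold changes of -0.18, -0.25 and -0.21. For Sirt5, the member with the largest difference in the fit of all libraries, they were 2700097O09Rik (0.10), Mcph1 (0.13) and Tfap4 (0.15), with log2 fold changes of -0.59, -0.66 and -0.58.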
